A study of Mus musculus with 6 samples.

Results

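Uromodulin and 3 further genes of the distal nephron, Umod, Bsnd, Tmem52b and Ppp1r1a, were followed in RNA-seq libraries from mouse renal cortex. They were taken by gene name from a count table that lists 22040 genes, and all 4 were found and passed the filter on low counts. The 6 libraries came from C57BL/6 mice, an inbred strain, and all are labelled WT (wild type). Of these, 3 came from sham-operated animals and 3 were taken 24 h after reperfusion (IR24h, a model of acute kidney injury). Reperfusion followed a 30 min clamp on the pedicles of both kidneys. The labels give no age, no detail of the sham operation and no statement that each library is a separate mouse, so p-values measure the spread between these libraries, which may be technical.

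The thick ascending limb is the stretch of the nephron that takes up salt without water. Its defining carrier is the sodium-potassium-chloride cotransporter NKCC2, encoded by Slc12a1, which works with the potassium channel ROMK (Kcnj1) on the urinary side and with chloride channels on the blood side. Uromodulin, a glycoprotein anchored to the urinary surface of these cells by a lipid and cut loose by the protease hepsin, is the most abundant protein of normal urine. Barttin, the product of Bsnd, is an accessory subunit that these chloride channels need at the membrane, also in the distal convoluted tubule and in intercalated cells. Ppp1r1a encodes inhibitor-1, a small protein that blocks protein phosphatase 1 once protein kinase A has phosphorylated it, and Tmem52b encodes a transmembrane protein.

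The sequences ahead of the transcription start are shown for Umod, which did not pass the test after injury, for Tmem52b, which fell, and for Slc12a1, the gene against which they are set further on. RefSeq (GRCm38.p6) promoter windows were matched by symbol for 2 of the 4 genes. Bsnd and Ppp1r1a had no entry. Each stretch is printed 5′ to 3′ on the strand of the gene, from base 250 before the start to base 31 before it (base 96 for Slc12a1).
Umod, chr7:119479293-119479512, minus strand: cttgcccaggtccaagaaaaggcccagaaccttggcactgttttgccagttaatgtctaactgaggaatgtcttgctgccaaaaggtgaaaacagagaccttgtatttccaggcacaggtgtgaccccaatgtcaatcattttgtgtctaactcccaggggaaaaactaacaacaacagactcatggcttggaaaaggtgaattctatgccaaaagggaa
Tmem52b, chr6:129512307-129512526, plus strand: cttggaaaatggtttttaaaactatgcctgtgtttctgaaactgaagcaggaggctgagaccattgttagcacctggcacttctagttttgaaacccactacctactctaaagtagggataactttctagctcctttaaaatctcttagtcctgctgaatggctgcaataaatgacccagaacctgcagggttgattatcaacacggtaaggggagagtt
Slc12a1, chr2:125152350-125152504, plus strand: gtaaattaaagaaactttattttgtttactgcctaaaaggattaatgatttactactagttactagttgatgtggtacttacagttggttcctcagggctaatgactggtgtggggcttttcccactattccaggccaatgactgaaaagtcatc
In the whole windows of 300 bases G and C made up 47.3% for Umod, 44% for Tmem52b and 42.7% for Slc12a1, against a median of 52.7% over 32851 RefSeq windows, of which 29.7, 19.2 and 15.6% respectively held less. These letters are a description of the stretches ahead of the genes, and no binding or chromatin was measured there.

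Totals were 14339985 to 17061844 counts in sham and 12877237 to 15998975 in IR24h libraries. Genes of the mitochondrial genome took 13.1 to 14.2% of them in sham and 26.2 to 68.9% in IR24h, which left 12455991 to 14639820 and 4008001 to 11804440 counts from all other genes. Levels are given as CPM, counts scaled to a library size of 1000000, where library sizes carry a TMM correction (the trimmed mean of M-values). IR24h 2 stood apart: across tested genes its log2(CPM + 1) values correlated at 0.864 to 0.877 with sham, above its 0.831 and 0.841 with IR24h 1 and 3. Some adipocyte markers also set it apart. Lep and Plin1, named after their values were seen, had 22.2 and 12.6 CPM in IR24h 2 and 0 counts in the other 5 libraries. Adipoq and Cfd were also highest in IR24h 2, at 16 and 13.4 CPM, with Cfd at 3.13 CPM in IR24h 1. Fabp4 did not set it apart, with 66.8, 65.1 and 82.9 CPM in IR24h 1, 2 and 3, against 13.2 to 23.4 CPM in sham. The authors' processing differed between the groups, since dividing counts by FPKM gave an implied gene length that was not the same for 1681 of 12806 genes (13.1%, tolerance 0.01 on the log2 scale, after removing a shift common to all genes). It was the same for each of the 4 genes. Processing and injury cannot be told apart in this design. Genes used here as markers of the thick ascending limb, Slc12a1, Kcnj1, Cldn16, Egf and Umod (itself 1 of the 4 genes), were detected in every library.

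Umod did not pass the test at 24 h after injury. Umod (ENSMUSG00000030963; chromosome 7, 119462711 to 119479282, minus strand, GRCm38) had 1207, 1298 and 1811 CPM in sham 1, 2 and 3, against 1563, 1243 and 3759 CPM in IR24h 1, 2 and 3. IR24h 1 and 2 lay inside the sham range, and IR24h 3 lay above every other library. The means were 1439 ± 325 CPM (SD, n = 3) in sham and 2188 ± 1369 CPM in IR24h, with a log2 fold change of 0.61 ± 0.47 (SE; edgeR quasi-likelihood test, adjusted p = 0.404). With limma-voom the difference was 0.47 with a 95% interval from −0.57 to 1.51, so that neither a fall by 0.57 nor a rise by 1.51 on the log2 scale lies outside it. With 3 against 3 libraries there are 20 assignments, and a 2-sided exact permutation p cannot go below 0.1. Without IR24h 3 the difference was −0.037, and with IR24h 2 as the lone injured library it was −0.20 (adjusted p = 0.574). In bulk tissue, fewer cells of a type and less RNA per cell cannot be told apart.

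The standing of Umod among all genes was high in both groups. Per kilobase of exon, Umod ranked 31 to 48 among the 21944 genes outside the mitochondrial genome in sham, and 23, 17 and 7 in IR24h 1, 2 and 3. Umod took 0.17, 0.184 and 0.245% of the counts outside the mitochondrial genome in sham 1 to 3 and 0.275, 0.206 and 0.637% in IR24h 1 to 3. In the authors' deposited FPKM, which carry no TMM correction, Umod had 265.8, 284.1 and 373 in sham, against 166.3, 295.6 and 629.1 in IR24h. On that scale IR24h 1, the library with the largest mitochondrial share, was the lowest of the 6, while on the CPM scale it lay inside the sham range. With library size as the only scaling the log2 fold change was 0.12. On the opposite strand, Gm44588 overlaps 19.5% of the exon bases of Umod, and the labels do not say whether the libraries kept the strand.

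**Figure D1:**
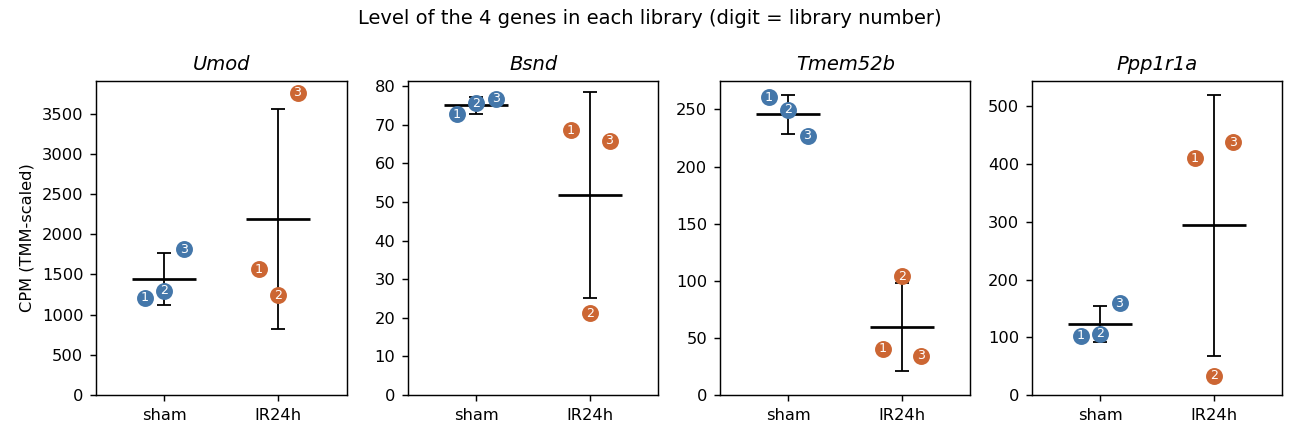
TMM-scaled CPM (linear axis from 0) of Umod, Bsnd, Tmem52b and Ppp1r1a in each library. Points are libraries marked with their number, the line is the group mean and the bar the SD (n = 3). Tmem52b lies between 227 and 261 CPM in sham and between 34.4 and 104 in IR24h, while the IR24h libraries of Ppp1r1a lie on both sides of sham.

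Tmem52b was the 1 gene of the 4 that changed, and it fell 4.11-fold. Of all tested genes 16.3% were called and 7.62% were called lower. Tmem52b (ENSMUSG00000030160; chromosome 6, 129512555 to 129519227, plus strand) had 260.5, 249.6 and 226.8 CPM in sham 1, 2 and 3, against 40.6, 104 and 34.4 CPM in IR24h 1, 2 and 3. All injured libraries lay below all sham libraries, with IR24h 2 the nearest to sham. The groups did not overlap in 41.5% of all tested genes. The means were 245.6 ± 17.2 CPM (SD, n = 3) in sham and 59.6 ± 38.4 CPM in IR24h (log2 fold change −2.04 ± 0.45 SE, edgeR adjusted p = 0.0235). Behind them stood 4563, 5191 and 4205 counts in sham, against 286, 2032 and 394 in IR24h. The limma-voom interval at 95% ran from −3.20 to −1.22. The call was lost when sham 1, 2 or 3 was left out (adjusted p = 0.0861, 0.0883 and 0.0875), when IR24h 1 or 3 was (0.0705 and 0.0577), and when scaled by library size alone (0.0770), at differences of −2.31 to −1.76. It was called with IR24h 2 as the lone injured library (−1.23, adjusted p = 0.0033), where 19.2% of tested genes were called lower, and without it (−2.72).

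Summed markers of the distal convoluted tubule, the next segment, moved in the same order over the injured libraries as Tmem52b, though single markers differed. The 8 markers together had 2754, 3121 and 2414 CPM in sham 1, 2 and 3, against 249, 1119 and 245 CPM in IR24h 1, 2 and 3. Klhl3 had 22.6, 16.3 and 18.2 CPM and Pvalb 1.85, 0.562 and 2.01 CPM in IR24h 1, 2 and 3, both lowest in IR24h 2. In the other markers IR24h 2 was the highest injured library. Trpv5 even lay above sham there, at 28.4 CPM against 14.2 to 19.9 CPM. Of the 8, 5 fell, 0 rose and 3 were not called, where 7.62% of all tested genes were called lower. The count of those lower was 2, 1 and 2 without sham 1, 2 or 3. Genes called lower over all then numbered 237, 212 and 196, against 1037 with all 6 libraries. The count of lower markers was 8 without IR24h 2, where 24.5% of all tested genes were called lower. The implied length differed between the groups for Slc8a1, called lower over all libraries, and for Trpm6, not called. The most abundant, Slc12a3, which encodes the thiazide-sensitive cotransporter, had 1304 ± 130 CPM in sham, against 334.6 ± 353 CPM in IR24h (adjusted p = 0.0961), and Kl, which encodes the Klotho protein, fell from 908 ± 155 to 101 ± 96 CPM (edgeR adjusted p = 0.021). A place of IR24h 2 nearest to sham was not particular to this segment. Summed podocyte markers had 115, 241 and 138 CPM in IR24h 1, 2 and 3, against 287 to 361 CPM in sham. Lrp2 of the proximal tubule had 230, 987 and 237 CPM, against 1637 to 2361 CPM in sham. In summed proximal tubule markers IR24h 2 was instead the lowest, at 15073, 9569 and 18061 CPM. The part of any of these markers in the fall of Tmem52b was not tested.

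On the CPM scale Bsnd was lower in all injured libraries but did not pass the test. Bsnd (ENSMUSG00000025418; chromosome 4, 106483456 to 106492283, minus strand) had 72.7, 75.6 and 76.8 CPM in sham 1, 2 and 3, against 68.6, 21.2 and 65.8 CPM in IR24h 1, 2 and 3. The groups did not overlap, which held for 41.5% of all tested genes, and IR24h 1 and 3 lay within 7 CPM of the lowest sham library. The means were 75 ± 2.1 CPM (SD, n = 3) and 51.9 ± 26.6 CPM, with a log2 fold change of −0.54 ± 0.43 (SE, edgeR adjusted p = 0.415) and a limma-voom interval at 95% from −1.80 to 0.33. The difference rested on IR24h 2. It was −1.81 (adjusted p = 0.00125) with IR24h 2 as the lone injured library and −0.16 (adjusted p = 0.408) without it. In the authors' deposited FPKM, which carry no TMM correction, Bsnd had 29.9, 30.9 and 29.5 in sham. The injured libraries lay below that, at 13.6, 9.39 and 20.5. When scaled by library size alone the log2 fold change was −1.17 (edgeR adjusted p = 0.129). As a share of counts outside the mitochondrial genome, Bsnd took 0.0102, 0.0107 and 0.0104% in sham 1 to 3. It took 0.0121, 0.00351 and 0.0111% in IR24h 1 to 3, so that there IR24h 1 and 3 lay above every sham library.

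Ppp1r1a split the injured libraries. Ppp1r1a (ENSMUSG00000022490; chromosome 15, 103530279 to 103538003, minus strand) had 102, 106 and 159 CPM in sham 1, 2 and 3, against 410.1, 33.5 and 438 CPM in IR24h 1, 2 and 3. IR24h 1 and 3 lay above every sham library and IR24h 2 lay below every sham library. The means were 122 ± 31.4 CPM (SD, n = 3) in sham and 294 ± 226 CPM in IR24h (log2 fold change 1.26 ± 0.79 SE, edgeR adjusted p = 0.295), and the limma-voom interval at 95% ran from −1.55 to 2.78. Without IR24h 2 the gene was called higher (1.79, adjusted p = 0.00159), where 23.9% of all tested genes were called higher. With IR24h 2 as the lone injured library it was called lower (−1.86, adjusted p = 0.00716), against 19.2% of tested genes. The direction thus rests on which injured library is used. Per kilobase of exon, Ppp1r1a ranked 304 to 441 of the 21944 genes in sham and 57, 1172 and 63 in IR24h 1, 2 and 3.

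Slc12a1 took the same course over the libraries as Ppp1r1a. It had 448.8, 412.3 and 573.7 CPM in sham 1, 2 and 3, against 1468, 197 and 912.9 CPM in IR24h 1, 2 and 3. Again IR24h 1 and 3 were above and IR24h 2 below all sham libraries (log2 fold change 0.85 ± 0.63 SE, edgeR adjusted p = 0.379). It was 1.31 (adjusted p = 0.00797) without IR24h 2 and −1.27 (adjusted p = 0.00954) with IR24h 2 as the lone injured library. Kcnj1, which encodes the ROMK channel, had 152.6, 158.6 and 145 CPM in sham, against 159.7, 97.3 and 237.6 CPM in IR24h. Its log2 fold change of 0.12 ± 0.35 (SE, adjusted p = 0.837) was −0.42 when scaled by library size alone, −0.25 without IR24h 3 and −0.63 with IR24h 2 as the lone injured library, where it was called lower (adjusted p = 0.0242).

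**Figure D2:**
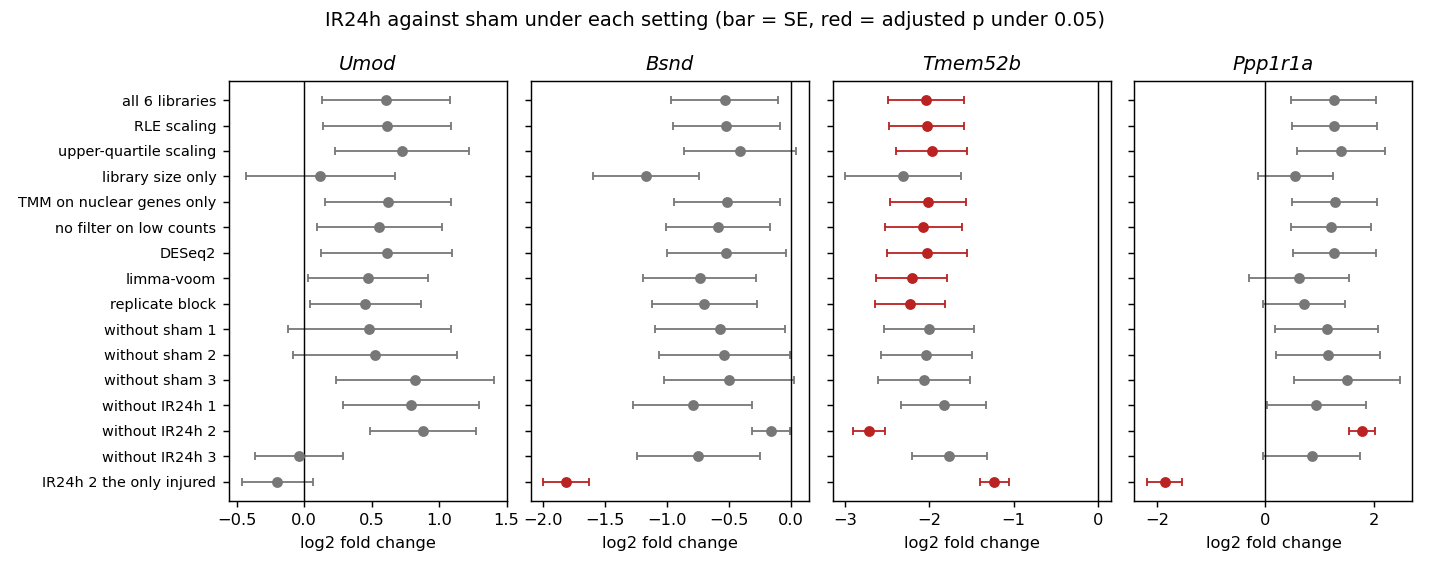
Log2 fold change of IR24h against sham for the 4 genes (horizontal axis, bar = SE) under each scaling, tool and choice of libraries (vertical axis), with adjusted p under 0.05 in red. Tmem52b lies below 0 throughout, between −2.72 and −1.23, while Umod and Ppp1r1a cross 0 when IR24h 2 is the only injured library.

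Levels of different genes can be compared per kilobase of exon. In sham the order was Umod at 520.6 ± 118 CPM per kilobase (SD, n = 3), Ppp1r1a at 93.8 ± 24, Tmem52b at 78.3 ± 5.48 and Bsnd at 27.2 ± 0.762. Ppp1r1a and Tmem52b, neighbours in that order, did not differ beyond their spread, with sham libraries at 78.4 to 121.5 and 72.3 to 83 CPM per kilobase. In IR24h 1 and 3 the order of the lower pair was turned, with Bsnd at 24.9 and 23.9 and Tmem52b at 12.9 and 11 CPM per kilobase. In IR24h 2 Tmem52b (33.1) and Ppp1r1a (25.6) both stood above Bsnd (7.68). Umod was the highest of the 4 in every library.

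The ratio of counts of a pair of genes within a library does not depend on library scaling. Counts of each gene were set against those of Slc12a1, and of 14 ratios computed in all none could pass 0.05, since 0.1 is the smallest 2-sided p of the exact permutation test. There were 0.162, 0.183 and 0.134 Bsnd counts for each Slc12a1 count in sham 1, 2 and 3 and 0.0467, 0.107 and 0.0721 in IR24h 1, 2 and 3. All injured libraries lay below sham, by 1.15 on the log2 scale in the mean (exact p = 0.1, 0.35 after Benjamini-Hochberg adjustment over the 14 ratios), and against Kcnj1 the difference was −0.74 (exact p = 0.1). Tmem52b had 0.581, 0.605 and 0.395 counts for each Slc12a1 count in sham and 0.0277, 0.527 and 0.0377 in IR24h. For Tmem52b IR24h 2 thus fell inside the sham range, and the mean difference was −2.66 (exact p = 0.2). Against Kcnj1 all injured libraries lay below sham for Tmem52b, at 0.254, 1.07 and 0.145 counts in IR24h 1, 2 and 3 and 1.56 to 1.71 in sham (−2.25 on the log2 scale, exact p = 0.1).

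Umod and Ppp1r1a showed no common shift against Slc12a1. Umod had 2.69, 3.15 and 3.16 counts for each Slc12a1 count in sham 1, 2 and 3 and 1.06, 6.3 and 4.12 in IR24h 1, 2 and 3, so that the injured libraries lay on both sides of sham (mean log2 difference 0.02, exact p = 1). Ppp1r1a had 0.228, 0.258 and 0.277 in sham and 0.279, 0.17 and 0.48 in IR24h, again on both sides (0.16, exact p = 0.7). Among the 4 genes themselves, the ratio of Umod to Tmem52b was 4.63, 5.2 and 7.98 in sham and 38.5, 12 and 109 in IR24h. It was higher in all injured libraries, by 2.68 on the log2 scale (exact p = 0.1), and it was the 1 ratio of the 6 among them in which the groups did not overlap.

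**Figure D3:**
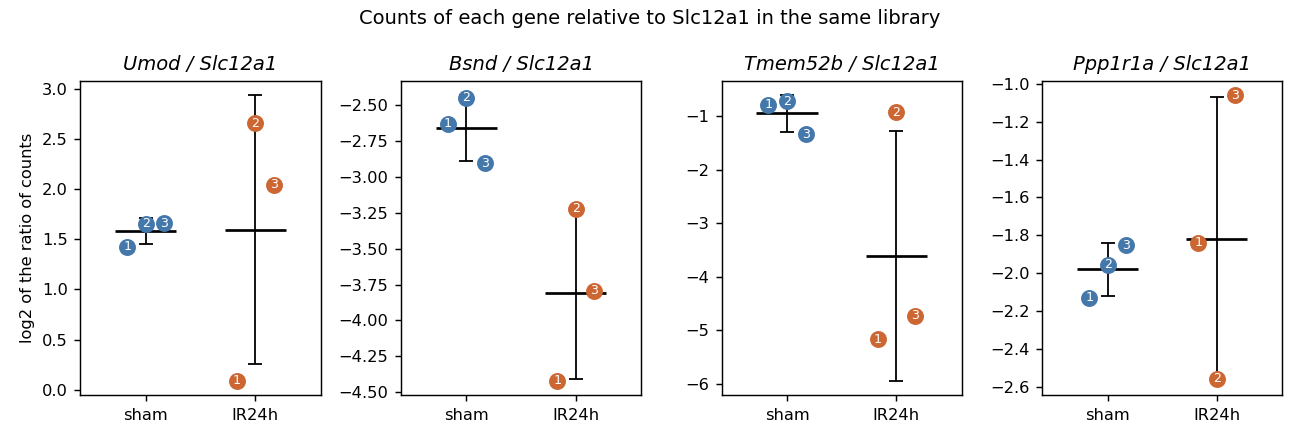
Log2 of the counts of each gene over the counts of Slc12a1 in the same library (vertical axis), by group. Points are libraries marked with their number, with mean and SD (n = 3). For Bsnd the injured libraries lie below sham, at 0.0467 to 0.107 counts for each Slc12a1 count against 0.134 to 0.183, and for the other genes the groups overlap.

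A list of 35 other thick ascending limb genes covered salt transport, claudins, receptors and secreted signals, and regulators. Of the 35, all tested, 5 rose, 1 fell and 29 were not called, and the median log2 fold change was 0.12 against 0.05 over all tested genes. Over all tested genes 8.65% were called higher and 7.62% lower. Without IR24h 2 the counts were 10 higher and 8 lower, where 48.3% of all tested genes were called in either direction, and with IR24h 2 as the lone injured library they were 6 higher and 10 lower, where 38.1% were (18.8% higher and 19.2% lower). Without sham 1, 2 or 3, or IR24h 1 or 3, 1 or 2 were higher and 1 was lower. Among all tested genes 246 to 842 were then higher and 196 to 749 lower, against 1177 and 1037 with all 6 libraries.

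Of the salt transport genes other than Bsnd, 13 in number, 1 rose and 0 fell. The riser was Stk39, which encodes the kinase SPAK that switches on NKCC2. It had 22.8, 18.4 and 24.4 CPM in sham 1, 2 and 3, against 46.4, 36.5 and 45.8 CPM in IR24h (log2 fold change 0.97 ± 0.25 SE, edgeR adjusted p = 0.0368). All its injured libraries were above sham, and groups were likewise apart in 41.5% of all tested genes. Atp1b1, which encodes the beta subunit of the sodium pump and is made along the whole nephron, lay below sham in all injured libraries without passing the test. It had 2107 to 2281 CPM in sham, against 563.1, 1913 and 946.6 CPM in IR24h (log2 fold change −0.95 ± 0.46 SE, edgeR adjusted p = 0.191). Without IR24h 2 it was called lower (−1.55, adjusted p = 0.00505).

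Of the 4 claudins, which form the paths between cells for calcium, magnesium and sodium, 2 rose and 2 were not called. Cldn19 rose from 17.8 ± 4.42 to 94.6 ± 50.9 CPM (SD, n = 3; log2 fold change 2.41 ± 0.49 SE, edgeR adjusted p = 0.0186). Cldn14, whose protein closes the paracellular calcium path, had 0 counts in all sham libraries and 28, 54 and 31 counts in IR24h 1, 2 and 3, and was at least 56.3-fold higher, taking 3 counts over the sham group as the floor (edgeR adjusted p = 0.00432). Cldn10 had 114 to 124 CPM in sham, against 51.1, 66 and 106 CPM in IR24h (−0.67 ± 0.31 SE, edgeR adjusted p = 0.18) and was called lower with IR24h 2 as the lone injured library (0.0116), and Cldn16 had 6.01 to 8.47 CPM in sham, against 2.96 to 7.34 CPM in IR24h. Of the 10 tested genes that flank Cldn14 on chromosome 16, 5 on each side, 4 were called higher, with a median log2 fold change of 0.74. Over all tested genes 8.65% were called higher, and the median was 0.05.

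Of the 8 genes for receptors and secreted signals, 1 rose and 1 fell. Egf, the epidermal growth factor precursor and like Umod a surface protein of these cells, fell from 1290.2 ± 47.2 to 98.4 ± 38.1 CPM, with 112, 55.4 and 128 CPM in IR24h 1, 2 and 3 (log2 fold change −3.71 ± 0.40 SE, edgeR adjusted p = 0.00212). Its level in sham per kilobase of exon was 114.4 ± 4.18 CPM, between those of Umod and Ppp1r1a given above. Ptgs2, which encodes the prostaglandin-forming enzyme COX-2, rose, with 4, 1 and 3 counts in sham and 710, 52 and 337 in IR24h 1, 2 and 3 (edgeR adjusted p = 0.0126). Pth1r, the parathyroid hormone receptor, had 634.7 to 776.7 CPM in sham, against 281.4 to 449.9 CPM in IR24h (adjusted p = 0.0633), and was called lower without IR24h 2 (−0.78, adjusted p = 0.0192), with IR24h 2 as the lone injured library (−1.29, 0.00467), with DESeq2 (0.00979) and with limma-voom (0.0499).

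Of the 10 regulators, 1 rose, namely Pax8, a transcription factor of the renal epithelium. It had 49.3, 59.7 and 58.3 CPM in sham 1, 2 and 3, against 160.2, 94.7 and 180.9 CPM in IR24h 1, 2 and 3 (log2 fold change 1.38 ± 0.31 SE, edgeR adjusted p = 0.0238). All injured libraries lay above sham, and groups did not overlap in 41.5% of all tested genes. The calls of Stk39, Cldn19, Ptgs2 and Pax8 were each lost without sham 1, 2 or 3 (adjusted p = 0.0568 to 0.19), and those of Stk39, Cldn19 and Pax8 also without IR24h 1 or 3 (0.0528 to 0.0707). Scaled by library size alone, Stk39 (0.48, 0.463) and Pax8 (0.84, 0.23) were not called. Neither was Stk39 with no filter on low counts (0.0537) or with the replicate number as a block (0.0721), nor Ptgs2 with limma-voom (0.1). Those of Cldn14 and Egf were kept under all 15 alternatives.

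**Figure D4:**
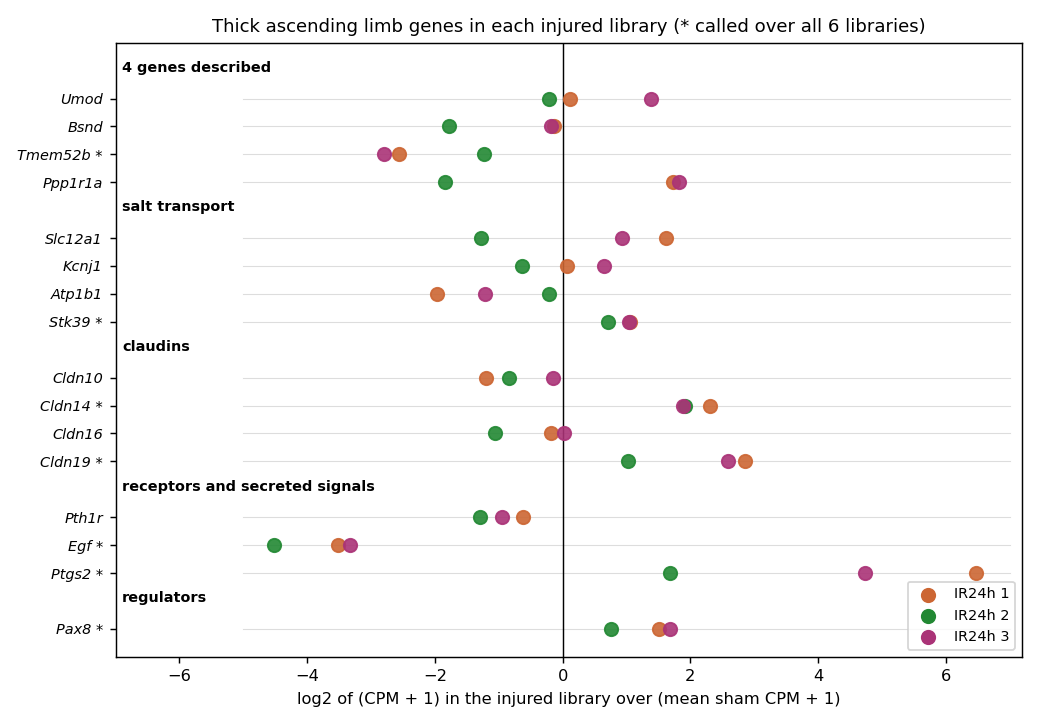
Log2 of (CPM + 1) in IR24h 1, 2 and 3 over (mean sham CPM + 1) for the 4 genes and the thick ascending limb genes named in the text (vertical axis, grouped by role). An asterisk marks a call over all 6 libraries. IR24h 1 and 3 lie together and apart from IR24h 2 for Ppp1r1a and Slc12a1, and Egf lies far below 0 in each.

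Around Umod on chromosome 7 lie Gp2, its closest relative, which encodes a related surface glycoprotein, and Pdilt, a protein disulfide isomerase gene. In the list of uromodulin processing, kin and neighbours 7 of 8 genes were tested, of which 2 rose and 5 were not called. Of all tested genes 8.65% were called higher. Without any 1 of the sham libraries, or IR24h 1 or 3, 1 was called higher, where 246 to 842 of all tested genes were, against 1177 with every library. Pdilt had 1.88, 2.69 and 2.64 CPM in sham 1, 2 and 3, against 31, 2.96 and 18.7 CPM in IR24h 1, 2 and 3, with IR24h 2 near sham (log2 fold change 2.85 ± 0.76 SE, edgeR adjusted p = 0.043). Its call was lost without any 1 of the sham libraries (0.139 to 0.149), without IR24h 1 or 3 (0.117 and 0.0959), when scaled by library size alone (0.0662), with the replicate number as a block (0.0902) and with limma-voom (0.159). With IR24h 2 as the lone injured library the value was 0.31 (0.543). Gp2 had 2 to 3.29 CPM in sham, against 36.4, 2.35 and 8.22 CPM in IR24h (2.56 ± 0.90, adjusted p = 0.09), and was called higher without IR24h 2 (3.07, adjusted p = 0.00657) and with DESeq2 (0.0105). Its implied length differed between the groups, and its sign was reversed with IR24h 2 as the lone injured library (−0.14). Of the 10 tested genes flanking Umod, 1 rose, 2 fell and 7 were not called, where 8.65% of all tested genes rose and 7.62% fell.

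Hpn, which encodes hepsin, the protease that frees uromodulin from the cell surface, had 313.7, 275.9 and 320.4 CPM in sham 1, 2 and 3, against 229.3, 141.7 and 121.2 CPM in IR24h 1, 2 and 3. The groups did not overlap, which held for 41.5% of all tested genes. The test was not passed (log2 fold change −0.89 ± 0.31 SE, edgeR adjusted p = 0.0877). Hpn was called lower without IR24h 1 (−1.21, adjusted p = 0.0349), with IR24h 2 as the lone injured library (0.00548) and with DESeq2 (0.0403). The mucin gene Muc1, which like UMOD is mutated in inherited tubulointerstitial kidney disease, rose from 9.94 ± 0.388 to 62.5 ± 31.4 CPM (SD, n = 3). It had 40.3, 48.8 and 98.4 CPM in IR24h 1, 2 and 3 (2.65 ± 0.39, adjusted p = 0.00614), and the call was kept under all 15 alternatives. Sec61a1, a channel protein of the endoplasmic reticulum from the same disease group, had 117 ± 5.13 CPM in sham, against 122 ± 23 CPM in IR24h (adjusted p = 0.883).

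The partners of inhibitor-1 were listed as protein phosphatase 1 and its small inhibitors. Of 11 genes, 9 were tested, 1 rose, 0 fell and 8 were not called, Ppp1r1a included, where 8.65% of all tested genes were called higher. The riser was Ppp1r14b, a further inhibitor of the phosphatase, with 23.7, 22.5 and 23.1 CPM in sham 1, 2 and 3, against 82.4, 37.9 and 115 CPM in IR24h 1, 2 and 3 (log2 fold change 1.76 ± 0.40 SE, edgeR adjusted p = 0.0268). Its implied length differed between the groups, and the call was lost without sham 1, 2 or 3 (0.108 to 0.118) or IR24h 1 or 3 (0.0674 and 0.0616) and when scaled by library size alone (1.19, 0.134). The most abundant catalytic subunit, Ppp1ca, also with a differing implied length, had 139 to 171 CPM in sham, against 148, 225 and 210 CPM in IR24h (adjusted p = 0.409), and was called higher with IR24h 2 as the lone injured library (0.56, 0.0392). With IR24h 2 left out, 4 of the 9 were called higher and 0 lower, against 23.9% and 24.5% of all tested genes. With IR24h 2 as the lone injured library 2 were higher and 3 lower, against 18.8% and 19.2%. Without any 1 of the other libraries 0 were higher, where 246 to 842 of all tested genes were, against 1177 with every library.

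Summed markers of tissue next to the cortex were higher in injured libraries, though single markers differed. The 9 markers of the medulla, where much of the thick ascending limb runs, had a summed level of 103 to 138 CPM in sham, against 437, 321 and 1013 CPM in IR24h 1, 2 and 3. Of 8 tested, 4 rose and 0 fell, against 8.65% higher over all tested genes, and none of the 9 was at 0 in a whole group. Among the risers, Aqp4 had an implied length that differed between the groups. The count of risers was 1 without sham 1, 0 without sham 2, 3 without sham 3 and 7 without IR24h 2. Over all tested genes the risers numbered 283, 246, 292 and 3297 in these settings, against 1177 with all 6 libraries. Cryab, a small heat shock protein gene and the most abundant over the injured libraries, had 9.25, 22.4 and 26.9 CPM in sham. It had 193, 73.7 and 583.7 CPM in IR24h 1, 2 and 3, a large part of the sum in IR24h 3. The most abundant by sham mean, Slc5a3, had 62.9, 56.3 and 62.2 CPM in sham, against 96.9, 173.5 and 75.6 CPM in IR24h (edgeR adjusted p = 0.102). Akr1b3 had 11.1 to 18.4 CPM in sham, against 3.41, 7.72 and 27.4 CPM in IR24h. Fxyd4 had 9.57 to 14.9 CPM in sham, against 27.3, 5.32 and 46.6 CPM in IR24h. IR24h 3, the library highest in Umod, was also the highest in the sum of these markers, and sham 3 was the highest sham library in both. Their part in the values of Umod and Ppp1r1a was not tested.

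Markers of other cell types moved as well, where 8.65% of all tested genes were called higher and 7.62% lower. Summed proximal tubule markers (10 genes) were at 27502 to 33243 CPM in sham, against 9569 to 18061 CPM in IR24h, with 6 lower and 0 higher. Among those lower, Slc22a6 and Slc22a8 had implied lengths that differed between the groups. Collecting duct markers (10 genes) were at 567 to 624 CPM in sham, against 382, 264 and 651 CPM in IR24h 1, 2 and 3, with 2 lower. IR24h 2 was the lowest in that sum but not in each marker. Aqp2 had 158, 45.8 and 377 CPM in IR24h 1, 2 and 3, and Slc26a4 had 11.6, 41.7 and 15.4 CPM. Endothelial markers (5 genes) were at 188 to 220.5 CPM in sham, against 258, 62.3 and 241 CPM in IR24h, with 1 lower. Podocyte markers (5 genes) were at 287 to 361 CPM in sham, against 115, 241 and 138 CPM in IR24h 1, 2 and 3, with none called. Leukocyte markers were at 23.2 to 28.3 CPM in sham, against 69.8 to 129 CPM in IR24h, with 5 higher of 7 tested entries, 2 of which share the symbol Itgam. Adipocyte markers (5 genes, 3 of them at 0 in all sham libraries) were at 13.4 to 23.4 CPM in sham, against 69.9, 129 and 83.1 CPM in IR24h, with 1 tested and higher. When any 1 sham library was left out, 4 proximal tubule, 0 collecting duct and 0 endothelial markers were called lower and 2 or 3 leukocyte markers higher. Among all tested genes 196 to 237 were then called lower and 246 to 292 higher, against 1037 and 1177 with every library. Without IR24h 2, 9 proximal tubule, 4 collecting duct, 3 podocyte, 1 endothelial and 1 leukocyte markers were called lower, against 24.5% of all tested genes. In that setting 2 collecting duct, 2 endothelial, 5 leukocyte and 1 adipocyte markers were called higher, against 23.9% of all tested genes. Their part in the results for the 4 genes was not tested.

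**Figure D5:**
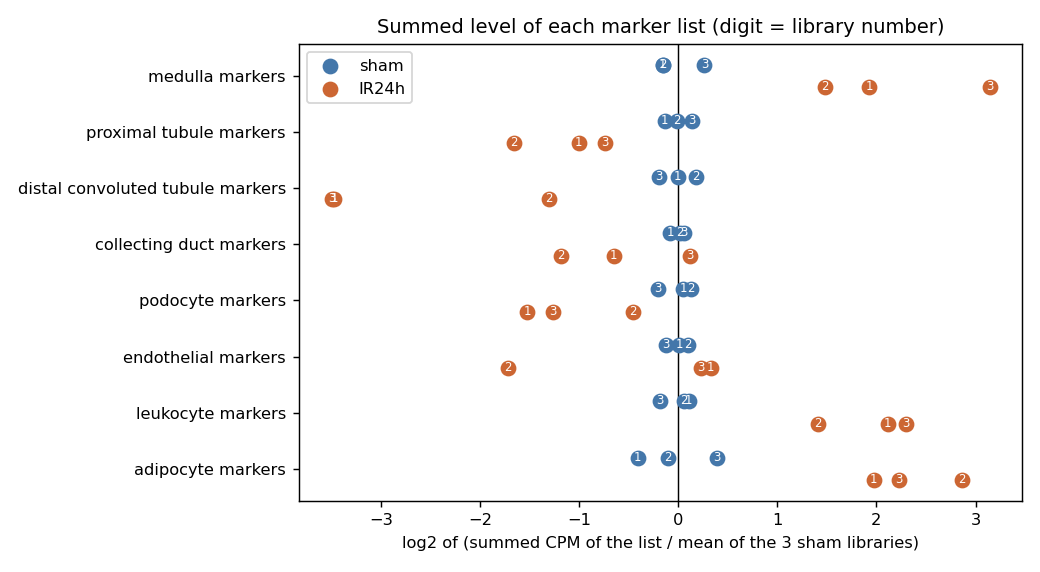
Log2 of the summed CPM of each marker list over the mean of the sham libraries (horizontal axis), with 1 point per library marked with its number. IR24h 1 and 3 lie far below IR24h 2 for distal convoluted tubule markers, at 249 and 245 against 1119 CPM, and IR24h 3 is the highest for medulla markers, at 1013 CPM.

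The genes most like each of the 4 over the 6 libraries were taken by Pearson's r of log2(CPM + 1) among 9231 others whose mean reached 10 CPM. These values share library, depth and scaling and are given as a description. For Umod they were Rps6ka1, Cwc15 and Pfkl (r = 0.985 to 0.990), whose ranges were much narrower (Rps6ka1 from 18.6 to 29.5 CPM). For Tmem52b they were Isoc1, F13b and Acot4 (r = 0.998 for each), all low in IR24h and least so in IR24h 2. F13b, for example, had 156, 159 and 142 CPM in sham 1, 2 and 3, against 5.68, 38.1 and 5.24 CPM in IR24h 1, 2 and 3. For Bsnd they were Slc4a1, which encodes the anion exchanger of acid-secreting intercalated cells, Camk2n1 and Vwa2 (r = 0.994 to 0.996), and Slc4a1 had 32.2 to 34.5 CPM in sham, against 29, 7.26 and 26.6 CPM in IR24h. For Ppp1r1a they were Cisd3, Dxo and Rbx1 (r = 0.997 to 0.999). None of the 12 is on the list of thick ascending limb genes.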

How the data were processed

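Total RNA of renal cortex was sequenced in 3 sham and 3 IR24h libraries. Per the submitters' processing notes, CASAVA 1.8 and TopHat2 2.0.6 were used and mm10 and GRCh38 are named as builds. The read counter, annotation and strandedness were not given in the sources used here. The authors deposited, per the file headers, raw counts per gene, the main measurement, and FPKM, used to compare implied gene lengths and as values beside the CPM. Of 22040 genes, 83 had no sham value and were left out.

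Counts were tested with edgeR 4.0.16 in R 4.3.3 (filterByExpr, 13609 genes, TMM, quasi-likelihood F test, 2-sided, Benjamini-Hochberg over all genes, called at adjusted p under 0.05). SE were derived from the F statistic. Alternatives were other scalings, no filter, DESeq2 1.42.0, limma 3.58.1 (voom), a replicate block and omission of libraries. List counts by choice of IR24h library and the FPKM set beside CPM were alternatives added after seeing the data. Fits were tested on simulated data. Ratios were tested by exact permutation (SciPy 1.17.1). Coordinates and exon lengths are from GENCODE M21 (GRCm38, the assembly of mm10), matched by identifier for 22010 genes. No 50-base stretch of the 4 genes is shared with another gene there.

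The 4 genes and all lists were chosen with earlier results of these data known. Named genes were the 4, the called and the 2 most abundant members (by sham mean) of each list on the thick ascending limb, uromodulin and protein phosphatase 1, Slc12a1, Kcnj1, Gp2 and Hpn, up to 2 abundant genes per marker list, and the 3 most alike genes per gene. A few genes of the lists are counted but not reported here by name.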

Additional observations from a re-analysis of the deposited data

How the results depend on the processing

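Tmem52b kept its direction under all 15 alternatives and its call under 9. It was not called when scaled by library size alone (−2.31), and leaving out 1 library gave −2.72 to −1.76. Umod was not called under any of the 15, but its sign was reversed with IR24h 2 as the lone injured library (−0.20), and leaving out 1 library gave −0.037 to 0.88. Bsnd was called only with IR24h 2 as the lone injured library (−1.81). Ppp1r1a was called in opposite directions without IR24h 2 and with IR24h 2 as the lone injured library (−1.86), and leaving out 1 library gave 0.85 to 1.79. The lone injured library is there assumed to vary like the sham libraries. The difference of the log2 ratio of Umod to Slc12a1 was −0.51 to 0.77 and that of Ppp1r1a to Slc12a1 −0.22 to 0.53 when 1 library was left out.

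Over all genes 1177 were called higher and 1037 lower. The counts were 398 and 611 when scaled by library size alone, 2690 and 2749 with IR24h 2 as the lone injured library, 2073 and 1695 with DESeq2, and 246 to 3297 and 196 to 3382 when 1 library was left out. Scaling by library size alone moved the median over all tested genes from 0.05 to −0.39 on the log2 scale.

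For the 19 other named genes, 225 of 285 values kept direction and side of the threshold, 38 lost the call, 13 gained one and 9 were reversed. Scaled by library size alone, Kcnj1 was at −0.42, Sec61a1 at −0.34 and Ppp1ca at −0.051. With IR24h 2 as the lone injured library Slc12a1 was at −1.27, Kcnj1 at −0.63 (called, adjusted p = 0.0242) and Gp2 at −0.14. Leaving out 1 library gave −0.25 to 0.38 for Kcnj1 and −0.031 to 0.21 for Sec61a1. The cause of these changes was not tested.

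The replicate numbers of the labels were not shown to pair libraries (deviations of same-numbered libraries correlated at −0.12, 0.15 and 0.29). With the replicate block 814 genes were higher and 843 lower, Tmem52b was at −2.23 (adjusted p = 0.0198), Umod at 0.45, Bsnd at −0.70 and Ppp1r1a at 0.71, and no call of the 4 changed. Of the other named genes, Stk39 (0.98, adjusted p = 0.0721) and Pdilt (2.39, 0.0902) lost their calls under the block. The lowest count of the 4 genes in any library was 286 (Tmem52b, IR24h 1), so that depth limited them less than the spread between libraries.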

Other observations

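Kcnj16, a potassium channel subunit gene of the distal nephron named here after its values were seen, was uneven within the sham group. It had 591 CPM in sham 1 against 69.2 and 49 CPM in sham 2 and 3, with 135, 57.6 and 224 CPM in IR24h 1, 2 and 3 (edgeR adjusted p = 0.604). Ppp1r1b, which encodes DARPP-32, the closest relative of inhibitor-1, was named in the same way. It had 15.2, 17.3 and 42.6 CPM in sham 1, 2 and 3, against 30.8, 3.48 and 93.6 CPM in IR24h 1, 2 and 3 (adjusted p = 0.608), so that library 3 was the highest of its group in both and IR24h 2 the lowest of the 6.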
